A study of Mus musculus with 35 samples.

Results

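The genes described here encode collagen chains, and they were examined in total RNA sequencing libraries of mouse embryonic stem cells (ESCs). They were chosen by symbol alone, as every row of the expression table named Col, a number, the letter a and a number. The rule took 43 of 26127 rows. Of these, 11 encode chains of fibrillar collagens, 6 encode the type IV chains of basement membranes, and 2 (Col15a1 and Col18a1) encode the multiplexins found at basement membrane zones. The other classes were type VI with 6 members, the fibril-associated collagens (FACIT) with 9, types VIII and X with 3, the transmembrane collagens with 4, and type VII and Col28a1 with 1 member each.

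The study followed ESCs through deletion of Dnmt1, the maintenance DNA methyltransferase, for 25 days. All lines descend from ESCs with loxP sites on both Dnmt1 alleles, and per the study's methods Cre was induced with tamoxifen (4OHT). Libraries labelled Wildtype and control (WT) and libraries labelled Dnmt1 KO (KO) were made at days 0, 1, 3, 6, 9, 11, 17 and 25, with 2 biological replicates per group and 3 at day 1. The labels give the background strain as E14, whereas the methods describe the parental line as C57BL/6. The Dicer KO group is 1 library, from a clonal line made by CRISPR/Cas9 in the same loxP-bearing ESCs, so its differences have no replicate check. The cultures were kept in serum with LIF, with or without feeder cells, and the libraries grown with feeders are not marked in the labels.

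The 35 libraries held 24.3 to 72.1 megareads, of which 5.11 to 17.6 megareads lay in genes. The share of reads in genes was 20.3% to 22% in the 20 libraries of days 0 to 9 other than the third day 1 pair, here called low-share. It was 44.2% to 48.9% in the remaining 15 (that pair, days 11, 17 and 25, and Dicer KO), here called high-share. The low-share and high-share libraries therefore differ with day, and comparisons that cross these sets are named as such. Dnmt1 was at 2.58 to 4.40 RPKM (reads per kilobase of exon and megaread of the library) in the KO libraries from day 1 on, apart from day 6 and the third day 1 pair, and at 14.1 to 34.8 in the matching WT libraries. At day 6 it was at 3.22 and 3.40 RPKM in the libraries labelled WT and at 20.2 and 20.4 in those labelled KO, which goes against both labels. The ESC marker Pou5f1 was at 45.5 to 260 RPKM in all 35 libraries. A lower level in such bulk RNA cannot tell apart fewer cells of a type and less RNA per cell.

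Collagens are trimeric extracellular proteins whose chains repeat the triplet Gly-X-Y, where X and Y are often proline and hydroxyproline. Fibrillar chains carry one long unbroken triplet domain and assemble into the cross-linked fibrils that fibroblasts lay down. Type IV chains have a domain with many interruptions and form the flexible network of basement membranes, which early embryonic epithelia and primitive endoderm also deposit. Folding of the triple helix relies on prolyl and lysyl hydroxylases and the chaperone Hsp47 (encoded by Serpinh1) in the endoplasmic reticulum.

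The difference between the classes can be read in the coding sequence. These stretches, in NCBIM37, the build of the deposited values, show the triplets of Col1a1 (residues 168 to 197) and Col4a1 (residues 212 to 237), with the glycine codons of the triplets in capitals.
Col1a1 (chr11:94800765-94801253, + strand, spliced): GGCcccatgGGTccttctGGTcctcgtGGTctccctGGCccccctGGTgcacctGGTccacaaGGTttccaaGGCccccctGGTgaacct
Col4a1 (chr8:11241191-11242799, - strand, spliced): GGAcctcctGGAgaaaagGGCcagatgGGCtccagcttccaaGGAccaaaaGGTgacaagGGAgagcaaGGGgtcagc
In Col1a1 a glycine codon opened each of 10 consecutive triplets. In Col4a1, 8 glycine codons were shown and 2 residues broke the repeat between the runs. Over whole chains, runs of at least 3 triplets were counted. The longest run of the 11 fibrillar chains was 216 to 344 triplets (median 338), in 2 to 5 runs per chain. The 6 type IV chains had 23 to 27 runs each, with a longest run of 39 to 66 triplets. Col18a1 had 17 runs, the longest of 30 triplets. The exons also differed, since 21 of the 51 exons of the Col1a1 transcript were 54 bases long, against 2 of 52 in Col4a1.

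**Figure D1:**
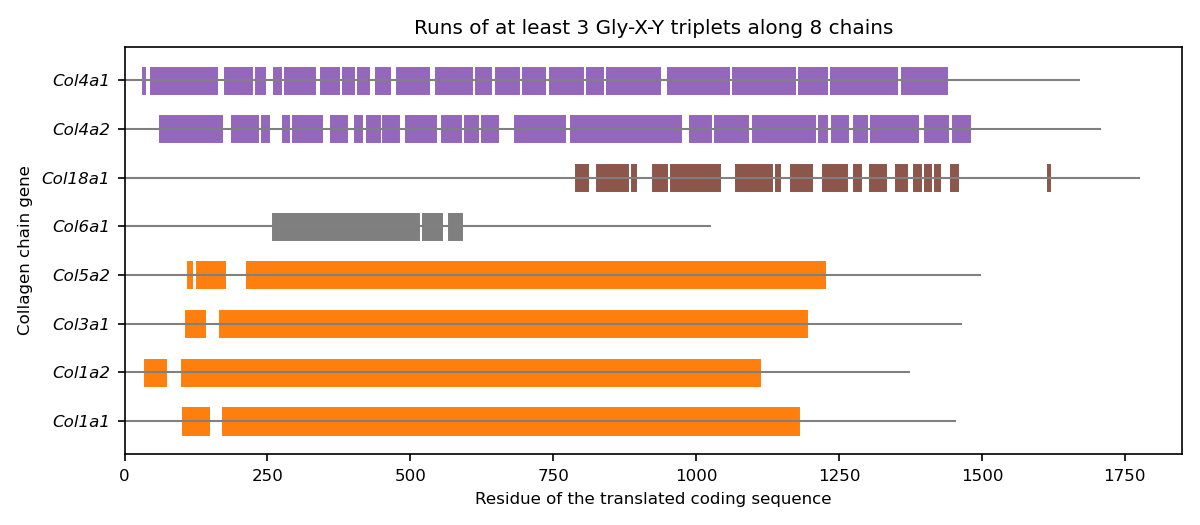
Each line is the translated coding sequence of a chain, in residues, and each block is a run of at least 3 Gly-X-Y triplets (orange, fibrillar; purple, type IV; brown, multiplexin; grey, type VI). The longest run of Col1a1 spans residues 168 to 1181 of 1453, whereas the triplets of Col4a1 fall into 23 runs.

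Col4a1 and Col4a2 are transcribed from opposite strands of chromosome 8, and their annotated start sites (11312826 and 11312805) leave the transcripts overlapping by 22 bases. The RefSeq promoter windows (GRCm38.p6, from 250 bases before to 50 after a start site) of the 2 genes share 78 bases, shown because these genes changed together below. CpG dinucleotides, at which Dnmt1 copies methylation after replication, are in capitals.
Col4a1 and Col4a2, shared (chr8:11312777-11312854, + strand): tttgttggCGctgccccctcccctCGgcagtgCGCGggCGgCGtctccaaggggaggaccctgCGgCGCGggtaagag
The shared stretch held 9 CpG. The whole window of Col4a1 held 37 CpG and that of Col4a2 held 33, against a median of 7 over 32851 RefSeq windows, of which 95% held no more than that of Col4a1. Of the 43 members 35 had a window, and their 38 windows had a median of 11.5 CpG, from 0 (Col3a1) to 37. These are counts of letters, and methylation was not analysed here.

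Dicer makes the mature microRNAs, and the miR-29 family is known for target sites in many collagen mRNAs. The mature sequences from RefSeq (GRCm38.p6) have the seed, bases 2 to 8, in capitals. All 3 share it.
mmu-miR-29a-3p: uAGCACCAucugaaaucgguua
mmu-miR-29b-3p: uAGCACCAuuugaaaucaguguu
mmu-miR-29c-3p: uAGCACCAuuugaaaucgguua
The complement of this seed, TGGTGCT, was searched on the transcribed strand of the 3′ UTRs of all genes, taking the transcript with the longest coding sequence. It was found in 23 of 43 collagen 3′ UTRs (53.5%) and in 2061 of 19467 genes (10.6%). Median 3′ UTR length was 882 bases for the members and 709 for all genes. Sites of 5 chains that return below are shown with flanking bases, in NCBIM37 and on the transcribed strand.
Col1a1 (chr11:94813844-94813866, +): ggaatttcTGGTGCTatagaagc
Col3a1 (chr1:45405819-45405841, +): tgtctcaaTGGTGCTataataaa
Col5a2 (chr1:45431803-45431825, -): tttaatgaTGGTGCTaaaattat
Col4a1 (chr8:11199754-11199776, -): tcacaacaTGGTGCTactccccc
Col4a2 (chr8:11448351-11448373, +): ggccacgtTGGTGCTtatccttc
Col5a1 and Col4a3 had 4 matches each, Col4a5 and Col5a3 had 3 each, and Col1a2, Col6a1, Col12a1 and Col18a1 had none. A match is a run of letters and not a measured site.

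Few collagen chains were abundant in ESCs. Across the 34 WT and KO libraries only Col4a1, Col4a2 and Col18a1 passed 5 RPKM in any library, and 14 members passed 1 RPKM. The other 29 stayed at or below 1 RPKM throughout, and 13 of them at or below 0.1 RPKM. Among the silent or nearly silent members were Col4a3, Col4a4 and Col4a6, the chains of specialised basement membranes. Tests were run on log2(RPKM + 0.1) with limma over 11594 genes, those above 1 RPKM in at least 2 of 32 libraries, with Benjamini-Hochberg adjustment over all of them. A call here means an adjusted p below 0.05, and a log2 difference is KO minus WT on that scale. The 14 members tested were Col1a1, Col1a2, Col3a1, Col5a1, Col5a2, Col4a1, Col4a2, Col18a1, Col6a1, Col6a3, Col8a1, Col9a2, Col9a3 and Col12a1. Col6a3, Col8a1 and Col12a1 passed this filter through KO libraries of days 3 and 9 alone, so they had to be higher there.

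Before deletion no difference was called. At day 0 limma called 0 of 14 members and 0 of 11594 genes, with 265 genes and 0 members at an unadjusted p under 0.05. For some members the day 0 groups still did not overlap. Col4a2 was at 5.05 and 5.35 RPKM in WT and at 4.86 and 4.60 in KO. Col5a1 was at 1.95 and 1.70 in WT and at 2.13 and 2.09 in KO. The number of members called then differed by day, from 0 at day 1 to 12 at day 9. At day 1 none was called higher or lower, against 0.216% of all genes higher and 0.069% lower, and 3 members had an unadjusted p under 0.05. At day 3, 6 were higher and 0 lower, against 7.77% and 4.16% of all genes. At day 9, 12 were higher and 0 lower, against 17.13% and 10.9% of all genes. Leaving out Col6a3, Col8a1 and Col12a1, the counts were 5 of 11 at day 3 and 9 of 11 at day 9. The median log2 difference of these 11 members was 0.41 at day 3 and 0.77 at day 9 (0.51 and 0.74 over all 14), when that of all genes was 0.02 at both days.

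In the later set 7 members were higher and 1 lower at day 11 (23.2% and 12.7% of all genes), 8 higher and 1 lower at day 17 (29.3% and 11.7%), and 5 higher and 2 lower at day 25 (39.8% and 26.2%). The member median was 0.38, 0.67 and -0.02 at days 11, 17 and 25, and that of all genes 0.07, 0.09 and 0.13. At day 6 the libraries labelled KO were lower for 10 members and higher for 0, against 19% and 9% of all genes, with a member median of -0.74. Since Dnmt1 contradicts the day 6 labels, this is the direction between the libraries as labelled.

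**Figure D2:**
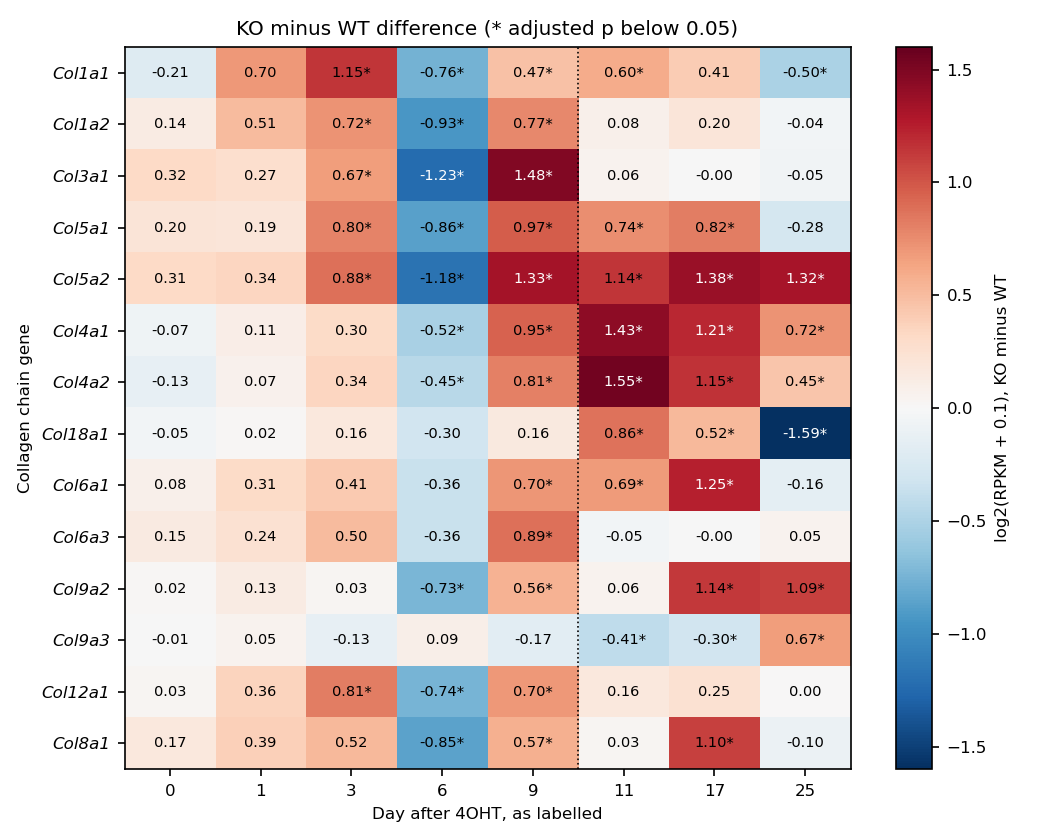
Rows are the 14 collagen chain genes tested, columns the labelled days, and colours and numbers the KO minus WT difference in log2(RPKM + 0.1), with an asterisk where the limma adjusted p is below 0.05. The dotted line parts the days before and after day 9. Red fills most of day 9, blue most of the column labelled day 6, and Col18a1 turns from 0.52 at day 17 to -1.59 at day 25.

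The basement membrane chains Col4a1 and Col4a2 formed the most abundant pair and stayed higher in the KO from day 9 on. Their products join, as 2 α1(IV) chains and 1 α2(IV) chain, in the trimer present in nearly all basement membranes. Col4a1 was at 10.8 and 12 RPKM in WT and at 11.06 and 10.6 in KO at day 0. It was at 16.6 and 15.6 in WT and 18.2 and 16.7 in KO at day 1, with the third pair at 5.23 (WT) and 5.52 (KO). At day 3 it was at 21.5 and 23.1 in WT and at 29 and 26 in KO. The KO libraries lay above the WT ones at day 3, but the difference was not called (log2 difference 0.30, SE 0.13, limma adjusted p = 0.156).

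At day 9 Col4a1 was at 10.6 and 12.9 RPKM in WT and at 21.9 and 23.5 in KO. The groups did not overlap, and KO exceeded WT by 0.95 on the log2 scale (SE 0.13, adjusted p = 1.47e-05 by limma). At day 11 the values were 7.23 and 7.59 in WT and 16.5 and 24.7 in KO, with a log2 difference of 1.43. The KO replicates spread widely at that day, while the lower of them still lay above both WT libraries. At day 17 Col4a1 was at 3.23 and 3.69 RPKM in WT and at 7.91 and 8.32 in KO (1.21), and at day 25 at 8.32 and 7.27 in WT and 14.0 and 11.8 in KO (0.72, adjusted p = 7.61e-05 by limma). In the libraries labelled day 6 the order was the opposite, with 26.8 and 28.7 in those labelled WT and 19.1 and 19.5 in those labelled KO.

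Col4a2 followed the same course at a lower level. At day 9 it was at 5.14 and 6.26 RPKM in WT and at 10.1 and 9.91 in KO, a log2 difference of 0.81 (SE 0.16, limma adjusted p = 0.000534). At day 11 it was at 2.69 and 3.08 in WT and at 6.40 and 11.5 in KO (1.55), and at day 17 at 1.43 and 1.48 in WT and 3.21 and 3.53 in KO (1.15). At day 25 the 2 WT libraries were at 3.88 and 3.36 RPKM and the KO libraries at 4.95 and 4.97. That last difference, 0.45 (limma adjusted p = 0.0153), was the smallest of the later days, and its call was lost on leaving out WT replicate 2 or either KO replicate. The same call was lost with limma-voom on recovered reads (0.33) and with only libraries of a like share of reads in genes. The day 11 call of Col4a2 was lost with only the groups compared. In the libraries labelled day 6 the lower level under the KO label was not called for Col4a1 without WT replicate 2, nor for Col4a2 without any 1 of the 4. The ratio of Col4a1 to Col4a2, both per length, was 2.06 to 2.99 in the 17 WT libraries (median 2.24) and 2.10 to 2.82 in the 17 KO libraries (median 2.29), so the ranges overlapped almost fully while the levels moved. For the remaining type IV chains only Col4a5, on chromosome X, passed 1 RPKM in any library of the series, and only in Dicer KO.

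Col18a1, whose product carries endostatin at its carboxyl end, behaved unlike the type IV pair. It held between 10.8 and 15 RPKM in the 20 low-share libraries, where KO and WT were not called different at any day. At day 11 it was at 6.82 and 8.72 RPKM in WT and at 9.91 and 20.1 in KO (log2 difference 0.86, limma adjusted p = 0.0008). That value rested largely on KO replicate 2, since without it the difference was 0.36, and without KO replicate 1 it was 1.37. At day 17 the values were 9.07 and 9.85 in WT and 14.4 and 12.8 in KO, a log2 difference of 0.52 (adjusted p = 0.0243 by limma) that was not called without WT replicate 1 or KO replicate 1.

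At day 25 the order turned. Col18a1 was at 24.5 and 22.3 RPKM in WT and at 7.47 and 7.93 in KO, so that both KO libraries lay far below both WT libraries. The difference of -1.59 (SE 0.18) had an adjusted p = 2.41e-07 by limma, and leaving out a replicate did not end the call. The WT level itself rose between day 11 and day 25, by 1.59 on the log2 scale (SE 0.18, adjusted p = 1.28e-07 by limma). The KO minus WT difference at day 25 was 1.75 lower than that at day 9 (SE 0.25, limma adjusted p = 1.8e-05).

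**Figure D3:**
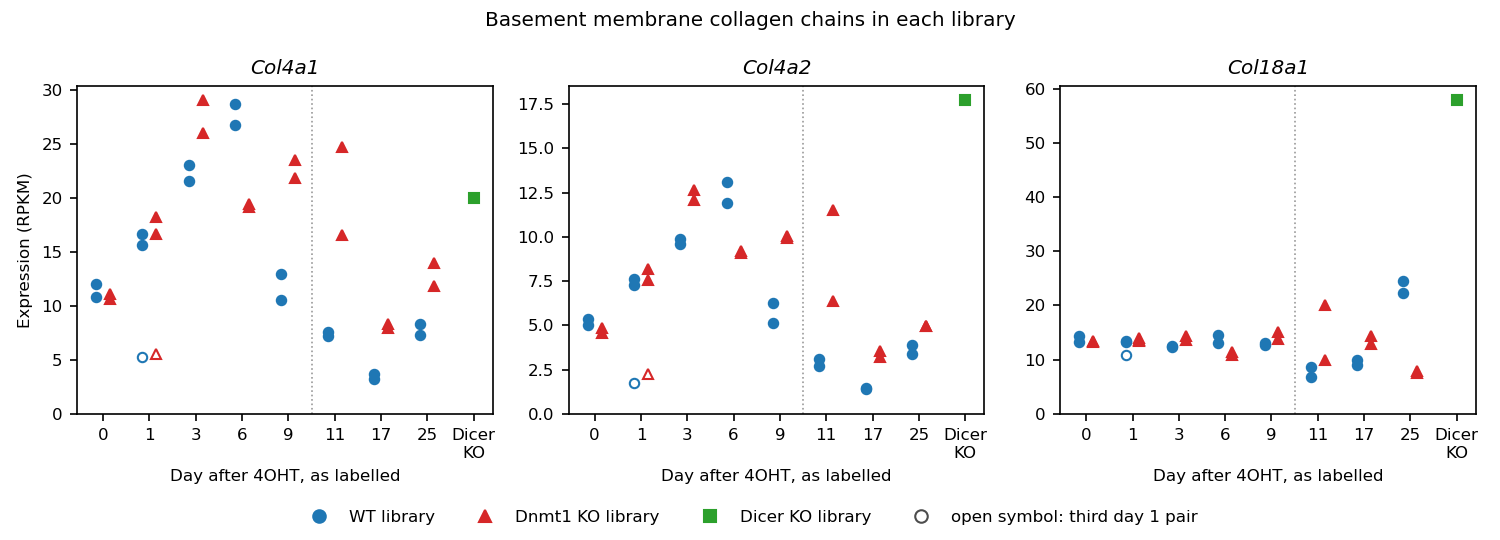
RPKM of Col4a1, Col4a2 and Col18a1 in each of the 35 libraries by labelled day, with WT as blue circles, KO as red triangles, the third day 1 pair as open symbols and Dicer KO as a green square. The dotted line parts days up to 9 from days 11 to 25, and each panel has its own axis from 0. KO lies above WT for both type IV genes from day 9, and for Col18a1 the day 25 KO libraries (7.47 and 7.93) lie below WT (24.5 and 22.3).

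The fibrillar chains were low throughout, and their sum fell into 2 ranges that followed the kind of library. Summed over the 11 genes, they reached 6.41 to 17.9 RPKM in the 20 low-share libraries and 0.663 to 1.85 RPKM in the 14 high-share WT and KO libraries. Col1a1, Col1a2 and Col3a1, the chains of type I and type III fibrils, showed the gap most widely. Col1a2 was at 1.16 to 3.71 RPKM (395 to 2650 reads) in the low-share libraries and at 0.00214 to 0.0393 RPKM (1 to 14 reads) in the high-share ones. The third day 1 pair had 0.0393 (WT) and 0.0285 (KO) RPKM of Col1a2, against 1.83 to 2.91 in the other 4 libraries of that day. The same day of the study thus held both levels.

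Fibroblast markers were measured in the same libraries. The sum of 13 fibroblast markers was 15.3 to 88.7 RPKM in low-share libraries and 11.7 to 49.1 in high-share WT and KO libraries, so that the ranges overlapped. Vim made up a large part of it, at 8.90 to 42.6 RPKM in the former and 5.25 to 45.9 in the latter. RPKM is per megaread of the whole library, and less of it lay in genes in low-share libraries. Levels of the 2 sets are therefore not on a like scale. Of the 13 markers 4 (Prrx1, S100a4, Postn and Pdgfrb) were higher in every low-share library than in any high-share WT or KO library, and the other 9 overlapped. Prrx1, a mesenchymal transcription factor, was at 0.042 to 0.675 RPKM in the former and at 0 to 0.0141 in the latter. S100a4, a fibroblast-enriched calcium-binding protein, was at 2.01 to 34.9 RPKM in the former and at 0 to 0.813 in the latter. At day 3 the sum was 27.4 and 31.5 in WT and 41.9 and 42.5 in KO, and at day 9 it was 37.5 and 44.5 in WT and 78.8 and 88.7 in KO. In the libraries labelled day 6 it was 24.5 and 29.1 for WT and 15.3 and 16.4 for KO. Of the 6 fibroblast markers tested, 2 were called higher at day 3 (7.77% of all genes) and 4 at day 9 (17.13%). At day 6 1 was higher and 3 lower under the KO label (9% and 19%). At day 11 3 were higher and 2 lower (23.2% and 12.7%), and at day 17 2 were higher (29.3%). At day 25 2 were higher and 2 lower (39.8% and 26.2%). The median difference of the 6 was 0.51 at day 3, 0.90 at day 9 and 0.02 at day 25. The part of fibroblasts in the collagen differences was not tested.

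Within the low-share libraries, all 5 fibrillar chains tested were called higher in KO at day 3 and at day 9. Col3a1, the homotrimeric type III chain, was at 1.02 and 0.894 RPKM in WT and at 1.63 and 1.54 in KO at day 3. At day 9 it was at 1.29 and 0.965 in WT and at 3.56 and 3.07 in KO. The groups did not overlap at either day, although the day 3 call was lost without WT replicate 2 or either KO replicate. The day 9 log2 difference of 1.48 (SE 0.18, limma adjusted p = 1.7e-06) was the largest of the 14 members at that day. In the libraries labelled day 6 the values were 1.01 and 1.33 for WT and 0.456 and 0.417 for KO.

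Col5a2, a type V chain that helps start type I fibrils, was at 1.02 and 0.892 RPKM in WT and 2.76 and 2.36 in KO at day 9 (log2 difference 1.33, limma adjusted p = 4.55e-06). Its partner Col5a1 was at 2.00 and 1.72 in WT and at 4.05 and 3.46 in KO (0.97), and its smaller day 3 difference (0.80) was not called without WT replicate 2. Col1a2 was at 2.06 and 1.99 in WT and at 3.71 and 3.37 in KO (0.77). Each of these 3 genes separated the groups at day 9. Col1a1 was at 1.35 and 1.32 RPKM in WT and at 1.89 and 1.90 in KO, with a log2 difference of 0.47 whose call (limma adjusted p = 0.0467) was lost on leaving out any of the 4 libraries and with the replicate number as a block. At day 3 Col1a1 was at 1.15 and 0.912 in WT and at 2.44 and 2.35 in KO, the largest difference among the 14 members at that day (1.15, SE 0.17, adjusted p = 0.000111 by limma).

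In the high-share libraries Col5a2 was the only fibrillar chain tested that was called higher in KO at each of days 11, 17 and 25. It was at 0.0128 and 0.019 RPKM in WT and at 0.182 and 0.131 in KO at day 11. At day 17 it was at 0.127 and 0.0734 in WT and at 0.414 and 0.416 in KO, and at day 25 at 0.104 and 0.138 in WT and at 0.494 and 0.408 in KO. The log2 differences were 1.14, 1.38 and 1.32 (limma adjusted p = 2.42e-05, 1.14e-06 and 1.25e-06), with WT counts of 4 to 36 reads. Adding 1 RPKM in place of 0.1 brought them to 0.19, 0.36 and 0.37, and the day 11 call was then lost. Col5a1 was called higher at days 11 and 17 (0.74 and 0.82) and not at day 25 (-0.28). At day 11 that call was lost without KO replicate 2, with a difference of 0.32. Col1a1 was called higher at day 11 (0.60) and lower at day 25 (-0.50) on 0 to 20 reads a library. The day 11 call was lost without WT replicate 1 or KO replicate 2 (0.28 without the latter), and that of day 25 without WT replicate 2 or KO replicate 2. Col1a2 and Col3a1, with at most 11 reads in any WT or KO library of days 11, 17 and 25, were not called there.

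**Figure D4:**
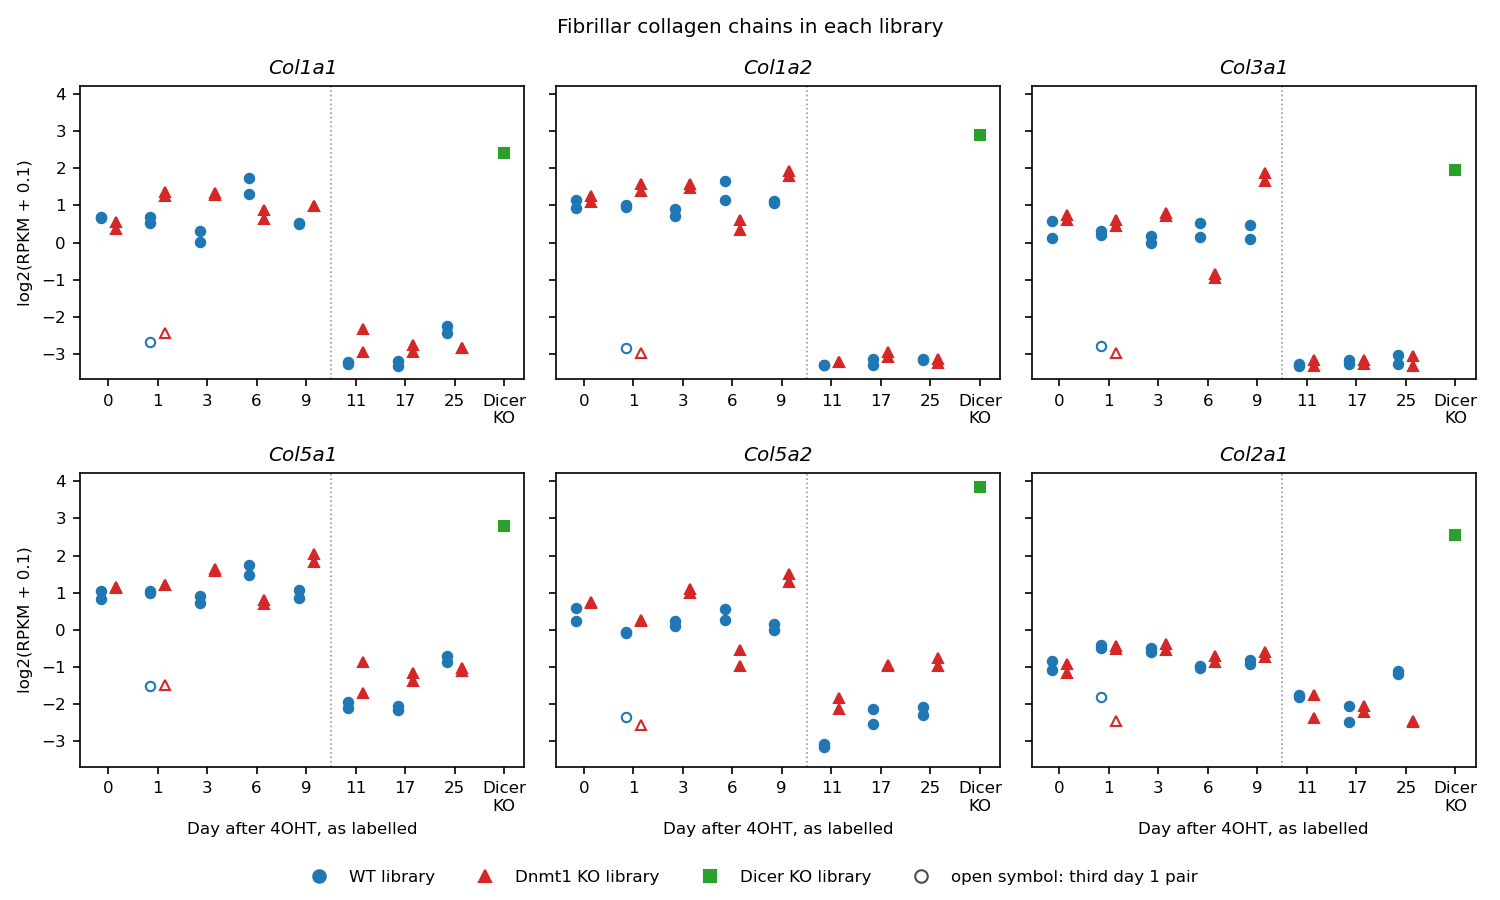
log2(RPKM + 0.1) of 6 fibrillar chain genes in each library by labelled day, with WT as blue circles, KO as red triangles, the third day 1 pair as open symbols and Dicer KO as a green square. The dotted line parts days up to 9 from days 11 to 25. Col1a2 drops from 1.16 to 3.71 RPKM on the left to at most 0.0393 in the right-hand WT and KO libraries and the third day 1 pair, and Dicer KO, at 7.29, is above all of them.

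The remaining tested members belong to the chains that sit on fibrils or form microfibrils and other networks. Col6a1, a chain of the beaded type VI microfibril, was at 2.70 and 2.05 RPKM in WT and at 4.11 and 3.69 in KO at day 9 (log2 difference 0.70, limma adjusted p = 0.0018), a call that was lost without WT replicate 2. At day 11 Col6a1 was called higher (0.69) on 1 and 3 reads in WT and 9 and 13 in KO. That call was lost with a pseudocount of 1 and with only the groups compared. Col6a1 was also called at day 17, at 0.00769 and 0.00764 RPKM in WT, which is 1 read in each library, and 0.154 and 0.156 in KO. Both WT libraries of that day thus lay at the limit of counting. Col6a3, Col8a1 and Col12a1 had log2 differences of 0.89, 0.57 and 0.70 at day 9, those of the first without WT replicate 2, and of the second without WT replicate 2 or either KO replicate, not being called. Col8a1, a short network-forming chain, had 0 reads in both WT libraries of day 17 and 0.158 and 0.0769 RPKM in KO.

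The split by kind of library was not limited to fibrillar chains. The FACIT chain Col12a1 was at 0.298 to 1.096 RPKM in low-share and 0 to 0.0579 in high-share WT and KO libraries. Col6a1 was at 0.887 to 4.11 RPKM in the former and 0.007 to 0.156 in the latter. The ranges of Col6a3 and Col8a1 did not overlap either, while those of Col4a1, Col4a2 and Col18a1 did. The FACIT chains Col9a2 and Col9a3, known from cartilage, did not share this split. Col9a3 was at 0.619 to 1.06 RPKM in the low-share libraries and at 0.899 to 1.71 in the high-share WT and KO libraries, and it was the only member called lower in KO at days 11 and 17. It was at 1.71 and 1.54 RPKM in WT and 1.22 and 1.17 in KO at day 11, a log2 difference of -0.41 (SE 0.10, limma adjusted p = 0.00228). At day 25 the order was reversed, with 0.899 and 0.909 in WT and 1.53 and 1.47 in KO (0.67, adjusted p = 5.43e-06 by limma). The day 17 difference of -0.30 was lost on leaving out any of its 4 libraries. Col9a2 was called higher at days 9, 17 and 25, and at day 25 it was at 0.344 and 0.536 RPKM in WT and at 0.836 and 1.28 in KO (1.09). The day 9 call of Col9a2 (0.56) was lost without WT replicate 1 or either KO replicate. Both genes were called lower in WT at day 25 than in WT at day 11.

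Many of the 29 members not tested also had groups that did not overlap, and they are described with no test. At day 3 both KO libraries lay above both WT libraries for 16 of them and below for 3, against 29.5% and 12.7% of the untested rows above 0 RPKM in a library of that day. At day 9 the counts were 14 and 6 (30.5% and 17.4%), at day 11 5 and 9 (26.3% and 12.6%), at day 17 12 and 6 (30.7% and 12.8%) and at day 25 6 and 11 (22.9% and 23.1%). At day 0, before deletion, they were 2 and 9 (15.7% and 13.6%), and at day 1 they were 8 and 2 (18% and 14.8%). As labelled, day 6 had 5 and 11 (14.4% and 32.7%). Those with KO above WT at both days 3 and 9 included the fibrillar chains Col5a3, Col11a1 and Col27a1, and also Col4a5, Col6a2 and Col16a1. Col4a5 was at 0.286 to 0.369 RPKM in WT and 0.52 to 0.59 in KO at day 3, and at 0.257 to 0.297 in WT and 0.486 to 0.58 in KO at day 9. Col13a1 and Col2a1 were singled out after their values were seen. Col13a1, a transmembrane collagen, was at 0.221 to 0.276 RPKM in WT and 0.348 to 0.392 in KO at day 3, and at 0.205 to 0.245 in WT and 0.379 to 0.387 in KO at day 9. It was at 0.227 and 0.191 RPKM in WT and at 0.4 and 0.401 in KO at day 11. At day 17 it was at 0.132 and 0.124 in WT and at 0.427 and 0.418 in KO, and at day 25 at 0.0866 and 0.136 in WT and at 0.255 and 0.233 in KO. KO lay above WT at each of these days, on 12 to 61 reads a library at days 11 to 25. Col2a1 was at 0.337 and 0.367 RPKM in WT and at 0.078 and 0.0812 in KO at day 25, the same order as Col18a1 at that day. In the WT and KO libraries the other untested members ranged from 0 to at most 0.802 RPKM (Col11a1).

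The members were also followed in WT libraries alone. From day 0 to day 9, 2 of 14 members were called higher and 0 lower (8.63% and 7.74% of all genes). These were Col6a1 (0.98, limma adjusted p = 0.000366) and Col6a3 (0.69, adjusted p = 0.0174), and the second was lost without WT day 0 replicate 2 or WT day 9 replicate 1. From day 11 to day 25, 5 were higher (Col18a1, Col5a1, Col5a2, Col1a1 and Col12a1) and 2 lower, against 35% and 33.6% of all genes. Col12a1 was not called without WT day 11 replicate 1 or WT day 25 replicate 2. Col18a1 changed by 1.59, and Col5a1 went from 0.134 and 0.162 RPKM to 0.51 and 0.447 (1.22). The sizes for Col1a1, Col5a2 and Col12a1 (0.90, 0.93 and 0.43) depended on the scale, and were 3.62, 2.85 and 3.45 with limma-voom on recovered reads.

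The KO minus WT difference itself changed between day 9 and day 25 for 10 members. It was lower at day 25 for 9 and higher for Col9a3, against 21.8% of all genes lower and 27.3% higher. Col6a3, Col8a1 and Col12a1 are among the 9, and having passed the filter only through KO libraries of days 3 and 9 they had to start high at day 9. Without them 6 of 11 members were lower and 1 higher. The median change of these 11 was -0.82 (-0.76 over all 14) and that of all genes 0.07. With limma-voom on recovered reads 4 of the 10 were called (Col18a1, Col1a1 and Col5a1 lower, Col9a3 higher), and Col6a3 turned to 0.32. Day 9 libraries were low-share and day 25 libraries high-share, so the day and the kind of library cannot be told apart in this comparison. Col4a1 and Col4a2 were not called (-0.23 and -0.36, limma adjusted p = 0.319 and 0.185). Some calls rested on single libraries, and Col6a3 lost its call without WT day 9 replicate 2 or KO day 9 replicate 1, Col12a1 without KO day 25 replicate 1, and Col8a1 without any of 6 of the 8 libraries.

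Genes that process, anchor or sense collagens were followed from lists. Of all genes, 7.77%, 17.13%, 23.2%, 29.3% and 39.8% were called higher at days 3, 9, 11, 17 and 25. The shares called lower were 4.16%, 10.9%, 12.7%, 11.7% and 26.2%. Whether listed genes or cell type markers passed the filter through KO libraries alone was not examined. Of 20 tested genes for collagen folding, modification and cross-linking, 7 were called higher at day 3, 18 at day 9, 10 at day 11, 9 at day 17 and 9 at day 25, while 1 was lower at day 11 and 3 at day 25. In the libraries labelled day 6, 12 were lower and 0 higher in those labelled KO, against 19% and 9% of all genes. Serpinh1, the collagen chaperone, was higher by 1.03 at day 9 (SE 0.09, limma adjusted p = 3.36e-08) and by 1.24 at day 25. Pcolce, which enhances removal of the carboxyl propeptide of fibrillar procollagens, was higher by 0.87 and 1.17 at those days. Sparc, a collagen-binding matricellular protein counted with the basement membrane partners below, was higher by 0.78 and 1.15. At day 25 these 3 and the fibrillar chain Col5a2 (1.32) were higher, while Col1a1, Col1a2, Col3a1 and Col5a1 were not called higher. Col1a2 and Col3a1 had 0 to 6 reads a library at that day, so a difference could hardly be detected, and Col1a1 had 8 to 20. Lox, which cross-links collagen, was higher by 0.68 at day 9 and was lower at day 25 (-0.63).

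The basement membrane partners divided differently from Col4a1 and Col4a2. Of 13 tested, 2 were higher at day 3, 2 at day 9, 8 at day 11 and 6 at day 17 (7.77%, 17.13%, 23.2% and 29.3% of all genes). At day 25 2 were higher and 8 lower (39.8% and 26.2%). At day 6, as labelled, 1 was higher and 2 lower (9% and 19% of all genes), and at day 17 1 was lower (11.7%). The largest changes at day 25 were those of Hspg2, the heparan sulphate proteoglycan perlecan (-2.81, SE 0.39, limma adjusted p = 3.2e-06), and the laminin chains Lama5 (-2.39) and Lamb2 (-1.41). Pxdn, the peroxidase that forms sulfilimine cross-links of type IV collagen, was also lower (-1.23). Col18a1 was also lower in KO at this day, while Col4a1 and Col4a2 were higher in KO. In WT libraries alone 7 of the 13 partners were called higher and 3 lower from day 11 to day 25 (35% and 33.6% of all genes). Their median change was 0.67, and that of Col18a1 in WT was 1.59. Of the 8 collagen receptor genes only Itgb1 and Ddr1 were tested. Itgb1 was also called higher at days 3 and 9 (0.49 and 0.40). Both were called higher at days 11 and 17 and lower at day 25, with log2 differences of -0.47 for Itgb1 and -1.01 for Ddr1. In WT libraries alone both were called higher at day 25 than at day 11, with a median log2 difference of 1.35.

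Primitive endoderm markers were followed because this lineage is known for type IV collagen. All 6 tested of 10 were called higher at day 9, against 17.13% of all genes. The sum of the 10 was then 6.30 and 6.39 RPKM in WT and 15.3 and 15.5 in KO, beside the rise of Col4a1 and Col4a2. In the libraries labelled day 6, 5 were lower in those labelled KO (19% of all genes). At day 11 1 was higher (23.2%), and at day 17 3 were higher and 1 lower (29.3% and 11.7%). At day 25 1 was higher and 3 lower (39.8% and 26.2%). The part of such cells in the type IV differences was not tested.

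Many collagen chains were higher in the Dicer KO library than in the WT libraries it was set beside. The library was set beside the 6 WT libraries of days 11, 17 and 25, which have a like share of reads in genes, and a member counted as past the fold when it lay more than 1 log2 unit beyond all 6. No test was run, since the group is 1 library. By this rule 18 of 43 members (41.9%) were higher and 0 lower, against 6.77% and 2.18% of all 26127 rows. The 18 comprised 7 of 11 fibrillar chains, 3 of 6 type IV, 3 of 6 type VI, 2 of 9 FACIT, and Col18a1, Col7a1 and Col8a1. Of the 43 members 15 passed 1 RPKM in this library and in none of the 6 WT libraries, as did 783 rows in all.

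Col18a1 was at 57.9 RPKM in Dicer KO, and the 6 WT libraries lay between 6.82 and 24.5, so it was 2.36-fold the highest of them. Col4a1 was at 20 RPKM against 3.23 to 8.32, and Col4a2 at 17.7 against 1.43 to 3.88. Their ratio was 1.13, below the lowest of the 34 WT and KO libraries (2.06). Col4a5 was at 2.10 RPKM against 0.0329 to 0.120, which is 17.5-fold the highest WT value.

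Of the 11 fibrillar chains 7 were past the fold, while 2 (Col24a1 and Col27a1) lay below all 6 WT libraries. Col5a2 was at 14.4 RPKM (3556 reads) against at most 0.138 RPKM in the WT libraries, 104-fold the highest. Col5a1 was at 6.82 RPKM against at most 0.51 and Col2a1, the cartilage fibril chain, at 5.80 against at most 0.367. Col1a1 was at 5.21 RPKM (882 reads) against 0 to 20 reads, Col1a2 at 7.29 RPKM (2283 reads) against 1 to 5 reads, and Col3a1 at 3.75 RPKM (811 reads) against 0 to 6 reads. All 11 fibrillar chains together reached 45.4 RPKM, compared with at most 17.9 in any WT or KO library of either set.

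Col12a1 and Col6a1 were at 5.66 and 4.42 RPKM against at most 0.0484 and 0.0379, and Col8a1 at 4.88 against at most 0.0301. Nearest to the limit on its inner side were Col18a1 and Col4a1, at 1.24 and 1.26 log2 units above the highest WT library. Just outside it Col11a1 was at 1.1 RPKM against at most 0.503 (0.998 log2 units). In all 6 members lay below all 6 WT libraries, without passing the fold. Col13a1, Col8a2, Col24a1 and Col25a1 could not pass it, since their lowest WT libraries were under 0.1 RPKM. Col9a3 was at 0.685 RPKM against 0.899 to 1.71, Col13a1 at 0.00841 against 0.0866 to 0.227, and Col27a1 at 0.0625 against 0.106 to 0.193. Col8a2 had 0 reads against 3 to 34, and Col24a1 and Col25a1 had 3 reads each against 4 to 22. Set beside all 17 WT libraries, low-share ones included, 12 members were past the fold in place of 18.

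**Figure D5:**
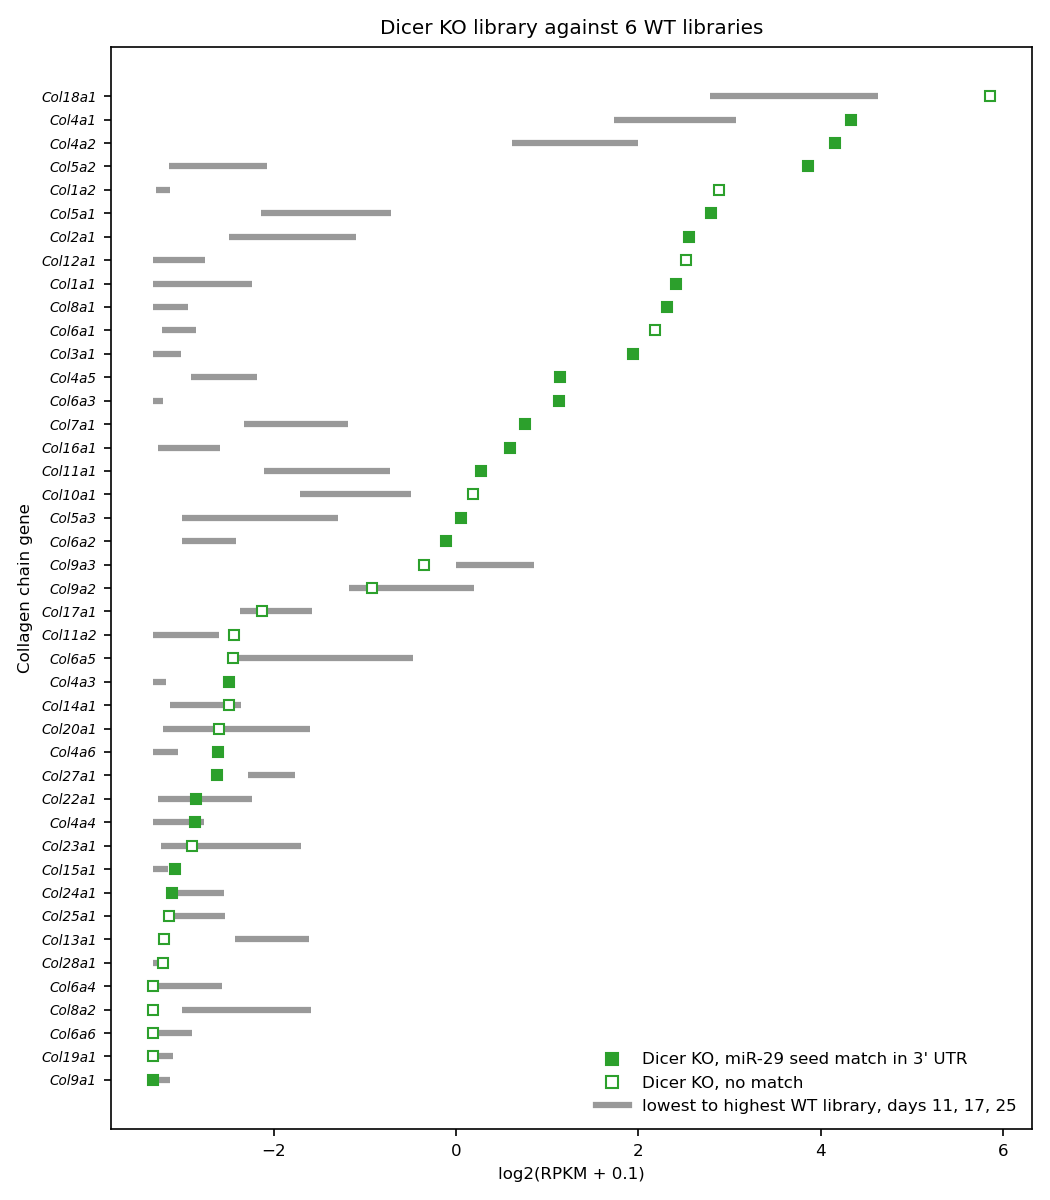
Each row is one of the 43 collagen chain genes, ordered by its level in the Dicer KO library (green squares, filled where the 3′ UTR holds TGGTGCT). Grey bars run from the lowest to the highest of the 6 WT libraries of days 11, 17 and 25, on the log2(RPKM + 0.1) axis. Of the 43, 18 squares lie more than 1 unit to the right of their bar and 0 more than 1 unit to the left. The latter was possible only for genes whose lowest WT library was above 0.1 RPKM.

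The chains with and without the miR-29 match were both among those higher in Dicer KO. Of 23 members with a match 14 were past the fold, and of 20 without a match 4 were (Col1a2, Col6a1, Col12a1 and Col18a1). Over all rows with an annotated 3′ UTR the counts were 192 of 2063 with a match (9.31%) and 1308 of 17436 without (7.5%). These counts are descriptions of 1 library.

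Fibroblast genes were high in the same library. Of the 13 fibroblast markers 11 were past the fold and 0 lower, and their sum was 504 RPKM against 11.7 to 25.7 in the 6 WT libraries. S100a4 was at 245 RPKM and Vim at 226, while Lum was at 0.0748 and Fap at 0.103. Of the collagen processing genes 14 of 30 were past the fold higher, of the basement membrane partners 9 of 17, and of the receptors 4 of 8. Over all 26127 rows the share was 6.77%. Of the 9 pluripotency markers 0 were higher and 1 lower, and Pou5f1 was at 128 RPKM. The ESCs edited to make such lines were on feeder plates when transfected, per the study's methods, and whether the sequenced culture held feeders is not given in the sources used here. The part of fibroblasts in these levels was not tested. Dicer1 itself was at 4.01 RPKM against 3.90 to 8.57 in the 6 WT libraries, a level that does not show the edit.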

How the data were processed

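Total RNA was depleted of ribosomal RNA and sequenced as stranded paired-end libraries. Per the labels and the study's methods, the authors trimmed reads with Trim Galore 0.3.5, mapped them with TopHat2 2.0.11 to NCBIM37, discarded mapping qualities under 20 and quantified genes in SeqMonk. The deposited values are RPKM, linear although the methods name log2 RPM, and 99.4% to 99.7% of low values corresponded to whole reads (within 0.1 read, values under 20 reads).

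The 43 members and all gene lists were chosen with earlier results of these data known. Differences were computed from log2(RPKM + 0.1) with limma 3.58.1 (R 4.3.3, eBayes with trend), with 1 mean for each of 16 groups over 32 libraries. The third day 1 pair stands apart and Dicer KO has 1 library, so both were left out. Genes above 1 RPKM in at least 2 libraries were tested, and p-values were adjusted over all of them. Members were eligible for naming, those with a group mean of at least 5 RPKM in full, as were Dnmt1, Dicer1 and up to 4 genes per comparison from the other lists, by size of difference. Other genes named (Pxdn, Lox, Itgb1, markers) were chosen after their values were seen. The replicates are biological per the series' design text. The scripts were tested on simulated data. RPKM carries no counting interval here, and read numbers cover counting error only. Antisense overlap at Col4a1 and Col4a2 is resolved only if counting used strand, which is not given in the sources used here. Same-numbered KO and WT libraries deviated together with r from -0.15 to 0.26, so numbers were not taken to pair libraries. The alternatives were other pseudocounts and filters, all 34 libraries, only the groups compared, median centring, a replicate block, limma-voom on recovered reads and leaving out each replicate.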

Additional observations from a re-analysis of the deposited data

Results flagged for a closer look

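For 10 collagen chain genes the KO minus WT difference at day 25 differed from that at day 9 by limma's test of the difference itself (adjusted p below 0.05). The change was -1.75 for Col18a1, -1.54 for Col3a1, -1.25 for Col5a1, -0.97 for Col1a1, -0.86 for Col6a1, -0.83 for Col6a3, -0.82 for Col1a2, -0.70 for Col12a1 and -0.66 for Col8a1, and 0.83 for Col9a3, all on the log2 scale. For Col18a1 and Col9a3 the genes were well above the read floor at both days. Col6a3, Col8a1 and Col12a1 were tested only because KO libraries of days 3 and 9 passed the filter, so a high start at day 9 was built into them. With limma-voom on recovered reads Col18a1, Col1a1, Col5a1 and Col9a3 kept the call, Col3a1, Col1a2, Col12a1, Col6a1 and Col8a1 lost it, and Col6a3 turned to 0.32. For Col3a1, Col1a2, Col6a1, Col6a3 and Col8a1 the day 25 libraries were at 0 to 6 reads each, so at day 25 a difference could hardly be detected. Day 9 and day 25 also differ in the share of reads in genes, and this cannot be told apart from the day.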

How the results depend on the processing

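Calls in collagen chain genes depended most on which libraries shared the estimate of spread. With all 34 WT and KO libraries, the members called numbered 0 at days 3, 6 and 9, 1 at days 11 and 17, 3 at day 25, 2 for day 25 against day 9, 0 for WT day 9 minus day 0 and 3 for WT day 25 minus day 11. The third day 1 pair then lies far from the other day 1 libraries and widens the spread, and 10 of 71 calls were kept. With only the groups compared, 11 were called at day 3 and 1 (Col4a1) at day 11. With libraries of a like share of reads in genes, chosen after seeing the data, 1 was called at day 1, 11 at day 3 and 4 at day 11. Leaving out the day 6 libraries, also chosen after seeing the data, kept all 61 calls it could test. A pseudocount of 1 gave 1 at day 1, 4 at day 11 and 4 for WT day 25 minus day 11, and one of 0.01 gave 3 at day 3 and 1 for WT day 9 minus day 0. Without the filter 15 were called at day 11, 18 at day 17, 12 at day 25, 4 for WT day 9 minus day 0 and 21 for WT day 25 minus day 11, among 43 members. The stricter filter gave 1 for WT day 9 minus day 0. With limma-voom on recovered reads 1 was called at day 1 and 4 for day 25 against day 9, and Col6a3 turned from -0.83 to 0.32 there, on 0 to 3 reads a library at day 25. Leaving out 1 replicate gave 4 to 6 members at day 3, 6 to 10 at day 6, 8 to 10 at day 9, 6 to 8 at day 11, 7 to 8 at day 17, 5 to 7 at day 25, 8 to 11 for day 25 against day 9, 1 to 2 for WT day 9 minus day 0 and 6 to 7 for WT day 25 minus day 11. The lowest day 6 count was without WT replicate 2, and the day 0 to 9 count was 1 without WT day 0 replicate 2 or WT day 9 replicate 1. The replicate block gave 10 at day 9 and 10 for day 25 against day 9, and it ended 3 of 62 calls (Col1a1 and Col8a1 at day 9, and Col8a1 for day 25 against day 9). Crossing the numbers at days 1 and 17 gave 0 and 9 members. Median centring kept 66 of 71 calls. For Dicer KO 12 to 23 members were past the fold over the settings tried, 2 of them lower with a pseudocount of 0.01. Chains under 1 RPKM, 29 of 43, were not tested, and differences of the fibrillar chains at days 11 to 25 rest on few reads.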
